A study of Mus musculus with 28 samples.

Results

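The Krüppel-like factors Klf10, Klf9, Klf4 and Klf5 were followed in the whole brain of 28 mice that were either untreated or had a seizure after nicotine and were studied 1 hour later. Every probe set (a group of short oligonucleotides read as 1 signal) that the platform annotation pairs with 1 of these 4 symbols alone was used, which gave 7 of the 10833 probe sets with 1 gene, and 4 of 8251 genes. Klf10 has the probe sets 99602_at and 99603_g_at, Klf9 has 93528_s_at and 93527_at, Klf4 has 99622_at and 161185_i_at, and Klf5 has 97937_at. The genes were chosen with their seizure differences, and the dependence of those differences on genotype, already known, so these quantities are given as a description, with no p-value and nothing read from whether they pass a threshold. The choice set no threshold on any value.

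RNA was measured on Affymetrix U74Av2 arrays, 1 array per mouse, and all mice were of the strain C57BL/6J. The groups differ in the nicotinic acetylcholine receptor, the ion channel that nicotine opens. Untreated mice were 6 wild-type animals aged 6 to 9 weeks, 5 alpha7 +/T animals aged 6 to 8 weeks and 5 beta4 null animals aged 6 to 9 weeks. Seized mice were 3 wild-type animals aged 7 to 8 weeks, 5 alpha7 +/T animals that were all 8 weeks old and 4 beta4 null animals aged 7 to 8 weeks. The alpha7 +/T mice are heterozygous for the L250T form of the alpha7 subunit. In beta4 null mice the beta4 subunit is missing. The labels give no promoter, Cre or cell type for either change. Nicotine was given into the peritoneal cavity at a dose set for each genotype so that seizures scored alike, and those doses are in none of the labels, so genotype and dose cannot be told apart in seized mice. No group received nicotine or an injection without a seizure, so the seizure, the drug and the handling cannot be told apart either. Chrnb4, the gene of the beta4 subunit, was not analysed here, and the signal of the alpha7 gene does not show a change of 1 residue, so the genotype labels were not checked.

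Krüppel-like factors are transcription factors whose zinc fingers bind GC-rich and CACCC elements in promoters, and members of the family activate or repress depending on the partners they recruit. Klf10 is known as an early gene induced by TGF-beta, and it represses transcription through the Sin3 corepressor. Klf9 is known in the brain as a gene induced by glucocorticoids and thyroid hormone. Klf4 and Klf5 are known from stem cells and vessel walls, and Klf4 also from neurons.

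The arrays fell into 2 technical classes, set by how far the Gapdh control signal near the transcript's 3 prime end exceeds that near its 5 prime end, as a log2 ratio. The ratio ran from -0.48 to 0.096 on 9 arrays and from 1.13 to 2.57 on the other 19. The 9 low-ratio arrays came from 2 untreated and 3 seized alpha7 +/T mice and from 2 untreated and 2 seized beta4 null mice, and no wild-type mouse had one. The titles also carry the prefix LT or B4, whose meaning the labels do not give: all alpha7 +/T mice are LT, all beta4 null mice are B4, and wild-type mice are of both. The untreated groups held 8 mice of 6 weeks (3 wild-type, 4 alpha7 +/T and 1 beta4 null) and the seized groups held none. A probe set was kept for testing when on at least 3 arrays its signal was above that array's median, which 6 of the 7 Krüppel-like probe sets did. The exception was Klf4 161185_i_at, which was above the array median on 0 of 28 arrays, with signals from 0.346 to 13.7, and it is not described further. Klf4 99622_at was above the median on 21 arrays, and the other 5 probe sets on all 28.

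The 250 bases upstream of the start of Klf9 and of Klf4, in the RefSeq table of build GRCm38.p6, are shown because both genes had higher mean signals after the seizure and have an entry in that table. Capitals mark TGACG (the core of the element bound by CREB, the factor that links activity to transcription), CACGTG (an E-box) and GGGCGG (a GC box), each searched on both strands. Both run 5′ to 3′ on the strand of the gene. Klf9 lies at chr19:23140976-23141225 on the plus strand and Klf4 at chr4:55532476-55532725 on the minus strand.
Klf9: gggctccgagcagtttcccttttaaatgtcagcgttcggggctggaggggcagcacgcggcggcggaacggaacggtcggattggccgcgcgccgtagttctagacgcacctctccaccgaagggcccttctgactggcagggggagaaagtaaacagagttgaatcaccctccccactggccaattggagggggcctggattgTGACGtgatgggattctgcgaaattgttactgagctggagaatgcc
Klf4: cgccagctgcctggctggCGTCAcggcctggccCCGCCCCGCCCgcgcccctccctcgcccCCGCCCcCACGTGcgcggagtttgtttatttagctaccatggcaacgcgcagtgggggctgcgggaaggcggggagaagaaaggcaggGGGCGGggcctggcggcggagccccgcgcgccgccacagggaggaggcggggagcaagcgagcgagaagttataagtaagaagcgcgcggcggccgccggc
Each window holds 1 TGACG match, 46 bases before the start in Klf9 and 232 bases before it in Klf4. TGACG occurs in 17.8% of 32851 promoters of the same length. GGGCGG was found 4 times in Klf4, with the pair farthest from the start sharing 1 base, and 0 times in Klf9. At least 4 such matches occur in 4.09% of promoters and at least 1 in 32.7%. CACGTG was found once in Klf4, 182 bases before the start, and 6.02% of promoters hold it. CACCC, the letters that the family itself can bind, was found once in Klf9, 84 bases before the start, and 0 times in Klf4, against 52% of promoters. The CArG box, the site of serum response factor, was in neither window and is in 1.47% of promoters. The GC content was 59.6% for Klf9 and 74% for Klf4. These matches are descriptions of the letters only.

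Klf10 was the member whose level stood farthest apart after the seizure, and it did so in the alpha7 +/T mice. On the log2 scale of the signal, 99602_at in untreated alpha7 +/T mice read 6.83, 6.99, 6.81, 6.79 and 6.94. In seized alpha7 +/T mice the same probe set read 8.26, 8.21, 8.09, 8.16 and 8.14. Every seized mouse of this genotype was above every untreated mouse, with a gap between the groups that was wider than either group's own range. The mean difference was 1.30 ± 0.14 (SE) on the log2 scale, or 2.47-fold, with a 95% interval from 1.02 to 1.58. These groups also differed in age: all 5 seized mice were 8 weeks old and 4 of the 5 untreated ones were 6 weeks old. With array class and age as covariates the difference was 1.165, the lowest of the alternative settings. The part of age was not tested beyond this value.

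In wild-type mice 99602_at ranged from 7.12 to 7.48 with a median of 7.29 in the 6 untreated animals. The 3 seized wild-type mice read 7.76, 7.77 and 7.73. Those 3 values had an SD of 0.019 and were all above the untreated range, as for 2.53% of probe sets. In alpha7 +/T mice 1.63% of probe sets were separated in that direction. The difference was 0.47 ± 0.15, with an interval from 0.16 to 0.79. In beta4 null mice the untreated values were 7.59, 7.70, 7.23, 7.01 and 7.30, and the seized values were 7.10, 7.81, 7.56 and 7.07. These groups overlapped: 2 of 4 seized beta4 null mice were above the untreated mean, 1 of them above every untreated mouse, and 2 were below it. The difference was 0.019 ± 0.14, with an interval from -0.28 to 0.32, and it ran from -0.12 without seized beta4 null mouse 2 to 0.12 without seized mouse 4. The untreated values of 7.59 and 7.70 came from low-ratio arrays. By array class, the beta4 null means were 7.65 untreated and 7.46 seized on low-ratio arrays. On high-ratio arrays they were 7.18 and 7.32, so the sign of the difference was not the same in the classes.

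The other Klf10 probe set, 99603_g_at, gave a similar picture in alpha7 +/T mice and a less clear separation elsewhere. Untreated alpha7 +/T mice read 6.08, 5.85, 6.26, 6.57 and 6.02, and seized ones 7.61, 7.99, 7.27, 7.22 and 6.97. All 5 seized values were again above all 5 untreated values, and the difference was 1.25 ± 0.18. Untreated wild-type mice ranged from 6.41 to 6.76 with a median of 6.53, and the seized ones read 6.87, 6.69 and 6.91, of which 2 were above the whole untreated range. The wild-type difference was 0.27 ± 0.20. Untreated beta4 null mice read 6.48, 6.83, 6.20, 6.19 and 6.14 and seized ones 6.50, 7.12, 6.69 and 6.57. All 4 seized beta4 null mice were above the untreated mean and 1 was above every untreated mouse, for a difference of 0.35 ± 0.19. The 2 probe sets thus read the beta4 null response differently, near 0 for 99602_at and above 0 for 99603_g_at, although both intervals include 0 (-0.036 to 0.74 for 99603_g_at). Without seized beta4 null mouse 2, which read 7.12, the value of 99603_g_at was 0.22. Over the 28 mice the pair had a Pearson r of 0.86 and a Spearman rho of 0.83, with r at 0.83 without the 2 mice farthest from the median and at 0.49 after the group means were removed. Both are read from the same arrays, so these correlations are descriptions.

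**Figure D1:**
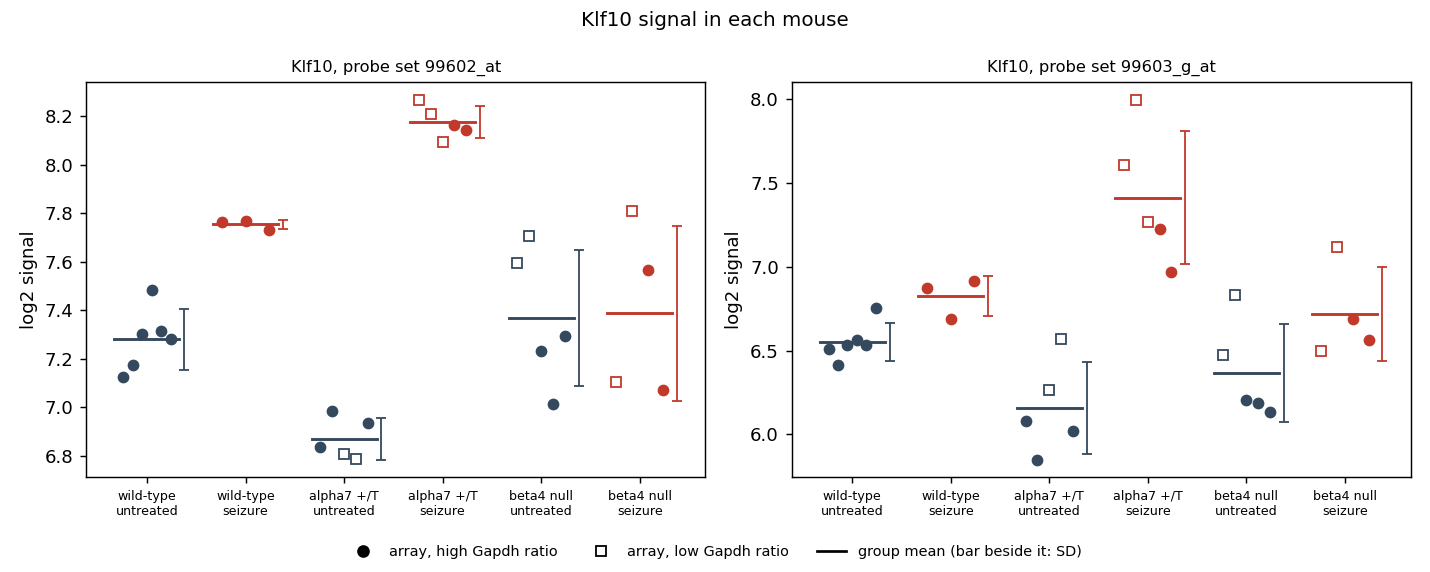
Log2 signal of the 2 Klf10 probe sets (vertical axes) in each mouse of the 6 groups (horizontal axes), with the group mean as a line and its SD as a bar beside it, circles for arrays with a high Gapdh ratio and open squares for those with a low ratio. In alpha7 +/T mice all 5 seized animals lie above all 5 untreated animals for both probe sets, and in beta4 null mice the groups overlap.

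The difference of these differences is the quantity that chose Klf10. For 99602_at the seizure difference in alpha7 +/T mice exceeded that in wild-type mice by 0.83 ± 0.20 (interval 0.41 to 1.25) and that in beta4 null mice by 1.28 ± 0.20 (0.88 to 1.69), and the beta4 null difference lay below the wild-type one by 0.46 ± 0.21 on the log2 scale. For 99603_g_at the alpha7 +/T difference exceeded the wild-type one by 0.98 ± 0.27 and the beta4 null one by 0.90 ± 0.26. The beta4 null and wild-type differences of 99603_g_at were 0.076 ± 0.27 apart. In the fit across all 7350 probe sets kept, 1 of the 6 Krüppel-like probe sets, Klf10 99602_at, passed the interaction F test at an adjusted p of 0.05, where 0.0272% of probe sets were called. It was also the only one of the 6 to pass for alpha7 +/T against beta4 null (0.0272% called), while 0 passed for alpha7 +/T or beta4 null against wild-type, where 0% of all probe sets were called. Nothing is read from these counts, since the gene was chosen by the same contrasts. The call of 99602_at in the F test ended with array weights, with age as a covariate, among mice of 7 weeks or older and on high-ratio arrays alone, and when untreated alpha7 +/T mouse 3 or 4, or mouse 1 or 4 of the seized beta4 null group, was left out.

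The size of the Klf10 difference changed less than its call. Across 17 alternative settings the alpha7 +/T minus beta4 null value of 99602_at ran from 1.10 on high-ratio arrays alone to 1.58 on low-ratio arrays alone. With each mouse left out in turn it ran from 1.18 to 1.43. The same quantity for 99603_g_at ran from 0.66 to 1.05 over the settings and was again lowest on high-ratio arrays and highest on low-ratio arrays. Within the alpha7 +/T mice, the means of the high-ratio arrays of 99602_at were 6.92 untreated and 8.15 seized, and those of the low-ratio arrays were 6.80 and 8.19, so the difference was present in each class.

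**Figure D2:**
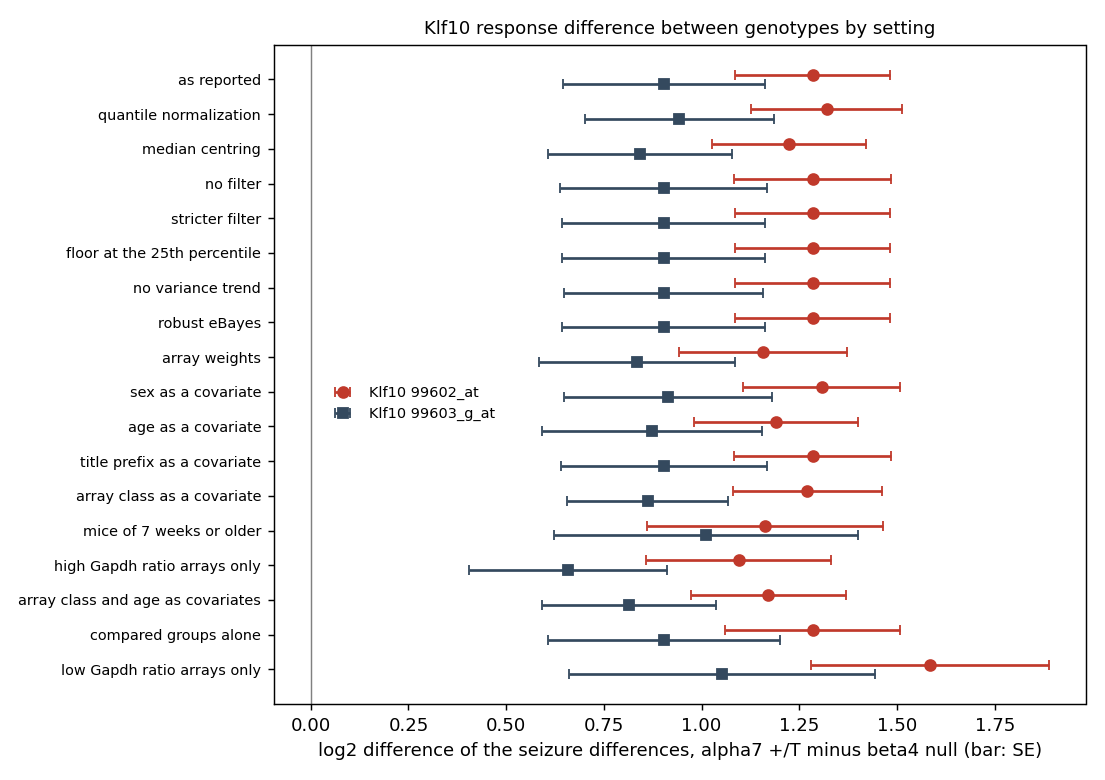
Difference between the seizure differences of alpha7 +/T and beta4 null mice for the 2 Klf10 probe sets (horizontal axis, log2 scale, bars SE), for the fit as reported and 17 alternative settings (vertical axis). All values lie above 0, from 0.66 to 1.58.

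Untreated alpha7 +/T mice had less Klf10 99602_at signal than the other untreated mice. For 99602_at all 5 untreated alpha7 +/T values were below all 6 wild-type values and all 5 beta4 null values, a separation shown in that direction by 2.33% and 1.63% of probe sets. Against wild-type the difference was -0.41 ± 0.13 (limma, adjusted p = 0.036) and against beta4 null it was -0.50 ± 0.14 (limma, adjusted p = 0.046). These tests use the same untreated arrays as the seizure differences and are not independent of the choice of the gene. They are also not firm: with each mouse left out in turn the wild-type comparison passed in 21 of 28 fits and the beta4 null comparison in 9 of 28. With age as a covariate neither passed. The values for 99603_g_at were -0.39 ± 0.17 (adjusted p = 0.10) and -0.21 ± 0.18 (adjusted p = 0.55).

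In seized mice the order of the 99602_at means was alpha7 +/T at 8.17 ± 0.066 (SD, n = 5), wild-type at 7.75 ± 0.019 (SD, n = 3) and beta4 null at 7.39 ± 0.36 (SD, n = 4). All 5 seized alpha7 +/T mice were above all 3 seized wild-type mice and all 4 seized beta4 null mice, separations shown in that direction by 4.63% and 1.65% of probe sets. The difference from beta4 null was 0.79 ± 0.14 (limma, adjusted p = 0.028) and that from wild-type was 0.42 ± 0.16 (adjusted p = 0.40). The neighbours in this order, alpha7 +/T with wild-type and wild-type with beta4 null (-0.37 ± 0.16, adjusted p = 0.76), did not pass the test. For 99603_g_at, alpha7 +/T differed by 0.69 ± 0.19 from beta4 null (limma, adjusted p = 0.36) and by 0.59 ± 0.21 from wild-type (adjusted p = 0.40). Its beta4 null minus wild-type value was -0.11 ± 0.21 (adjusted p = 0.90). Its seized alpha7 +/T values were all above the wild-type ones but overlapped those of beta4 null mice. The seized arrays are also those behind the seizure differences, so these tests are not independent of the choice of the gene. Of the 6 Krüppel-like probe sets 1 passed between seized alpha7 +/T and beta4 null mice, where 0.068% of all were called, and 0 passed in the other comparisons of seized mice, where 0% (alpha7 +/T against wild-type) and 0.0136% (beta4 null against wild-type) were called. The call against beta4 null was lost when seized alpha7 +/T mouse 1, 2, 3 or 4, or mouse 1 or 4 of the seized beta4 null group, was left out.

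Klf4 had a higher mean after the seizure in all 3 genotypes. In wild-type mice 99622_at ranged from 5.83 to 6.72 with a median of 6.14 untreated, and read 7.65, 6.87 and 6.70 after the seizure. Alpha7 +/T mice read 5.44, 6.31, 4.74, 5.28 and 5.86 untreated and 6.38, 5.86, 5.71, 7.15 and 7.19 seized. Beta4 null mice read 5.68, 5.24, 6.43, 5.89 and 6.07 untreated and 6.56, 6.62, 7.25 and 7.49 seized. All 12 seized mice were above the untreated mean of their own genotype, and in beta4 null mice every seized value was above every untreated value, as for 0.422% of probe sets. The differences were 0.83 ± 0.35 for wild-type, 0.93 ± 0.31 for alpha7 +/T and 1.12 ± 0.33 for beta4 null mice. Without seized wild-type mouse 1, which read 7.65, the wild-type value was 0.54. The mean over genotypes was 0.96 ± 0.19, or 1.95-fold. The differences between genotypes of this response were 0.10 ± 0.47 (alpha7 +/T minus wild-type, interval -0.86 to 1.06), 0.29 ± 0.48 (beta4 null minus wild-type) and -0.19 ± 0.45 (alpha7 +/T minus beta4 null). These intervals are wide enough to hold a genotype effect as large as the Klf4 response itself in wild-type mice.

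Klf4 was also the member that differed most between the array classes. The within-group difference of low-ratio from high-ratio arrays was -0.88 ± 0.16 (limma, adjusted p = 3.2e-05), in a comparison where 52.1% of all probe sets were called (26.7% higher and 25.4% lower on low-ratio arrays) and which was chosen after the data were seen. In each of the 4 groups with both classes, the low-ratio arrays had the lower mean, for example 5.99 against 7.17 in seized alpha7 +/T mice. With array class as a covariate the mean seizure difference was 1.05 ± 0.13, and on high-ratio arrays alone it was 1.12 ± 0.17. Of the 6 Krüppel-like probe sets, 3 passed between the classes. Klf9 93527_at was higher on low-ratio arrays by 0.52 ± 0.15 (adjusted p = 0.0057) and Klf10 99603_g_at by 0.41 ± 0.10 (adjusted p = 0.0015). The values for the others were 0.13 ± 0.096 for Klf10 99602_at, -0.081 ± 0.080 for Klf9 93528_s_at and -0.20 ± 0.095 for Klf5.

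Klf5 was the only member that was lower after the seizure, in wild-type and alpha7 +/T mice. In wild-type mice it ranged from 6.87 to 7.35 with a median of 7.09 untreated and read 6.70, 6.76 and 6.85 seized. The alpha7 +/T mice read 7.49, 7.41, 7.27, 6.83 and 6.86 untreated and 6.51, 6.55, 6.43, 6.76 and 6.40 seized. In both genotypes every seized mouse was below every untreated mouse, as for 1.7% of probe sets in wild-type and 1.32% in alpha7 +/T mice. The differences were -0.35 ± 0.16 and -0.64 ± 0.14. In beta4 null mice Klf5 read 6.59, 6.64, 6.94, 6.83 and 7.01 untreated and 6.85, 6.73, 7.01 and 7.01 seized, which overlap, for a difference of 0.096 ± 0.15. The alpha7 +/T response lay below the beta4 null response by 0.74 ± 0.20 on the log2 scale (interval -1.16 to -0.32). By title prefix, the wild-type difference was -0.56 among LT mice, with 1 seized wild-type mouse, and -0.17 among B4 mice. The alpha7 +/T minus wild-type response was -0.30 in the full fit and -0.083 among LT mice. The part of the title prefix in the Klf5 result was not tested.

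The alpha7 +/T groups compared for Klf5 also differed in age. All 5 seized alpha7 +/T mice were 8 weeks old, while 4 of the 5 untreated ones were 6 weeks old, and the remaining untreated mouse, of 8 weeks, read 6.86. Among mice of 7 weeks or older, which leaves that 1 untreated mouse, the difference was -0.33 ± 0.20. With age as a covariate it was -0.52 ± 0.16, and with array class as a covariate it was -0.60 ± 0.13. In untreated mice the difference of 6-week-old from older mice, with genotype in the model, was 0.17 ± 0.14 (limma, adjusted p = 0.54). The part of age in the Klf5 result was not tested beyond these values.

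Klf5 was also lower where the summed signal of endothelial markers was lower. The summed signal of 10 measured endothelial markers, on a log2 scale, ran from 10.48 to 11.14 in untreated and from 9.86 to 10.26 in seized alpha7 +/T mice, from 10.35 to 10.83 and from 10.18 to 10.23 in wild-type mice, and from 10.10 to 10.48 and from 9.93 to 10.53 in beta4 null mice. Of these 10 genes, 3 fell in alpha7 +/T mice, where 1.09% of all probe sets were lower, and 0 rose: Sox18 by 1.12 ± 0.17, Cldn5 by 1.26 ± 0.29 and Eng by 0.90 ± 0.20 on the log2 scale (limma, adjusted p = 0.00060, 0.018 and 0.016). The median change of the list was -0.48, beside 0.0093 over all genes. The list was chosen with earlier results of these data known, so its counts and p-values are descriptions. The other 7 markers did not pass, with -0.72 for Sox17, -0.49 for Tie1, -0.48 for Kdr, -0.45 for Vwf, -0.34 for Pecam1, -0.13 for Flt1 and 0.087 for Cdh5. By age, in untreated mice, Cldn5 was 0.79 ± 0.20 higher at 6 weeks than in older mice (limma, adjusted p = 0.049), Eng was 0.45 ± 0.14 higher (adjusted p = 0.11) and Sox18 0.18 ± 0.15 higher (adjusted p = 0.56). Across the 28 mice, Klf5 and the endothelial sum had a Pearson r of 0.86, a Spearman rho of 0.81, an r of 0.79 without the 2 mice farthest from the median and 0.67 after group means were removed. By marker, r with Klf5 was 0.85 for Eng, 0.70 for Sox18, 0.65 for Cldn5, 0.57 for Sox17, 0.53 for Tie1 and 0.38 for Vwf. It was 0.18 for Cdh5, 0.092 for Kdr, -0.035 for Pecam1 and -0.10 for Flt1, so Klf5 did not follow every marker of the list. The part of endothelial RNA or of age in the Klf5 result was not tested, and in whole tissue fewer cells of a type and less RNA per cell cannot be told apart.

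Klf9 93528_s_at had a slightly higher mean after the seizure in each genotype. Over the mean of genotypes and in alpha7 +/T mice both Klf9 probe sets had smaller differences than Klf10 or Klf4, an order that did not hold against Klf10 in wild-type and beta4 null mice. For 93528_s_at wild-type mice ranged from 9.03 to 9.50 with a median of 9.36 untreated and read 9.45, 9.56 and 9.53 seized. Alpha7 +/T mice read 9.03, 8.79, 8.96, 8.94 and 9.09 untreated and 9.41, 8.90, 9.25, 9.43 and 9.54 seized. Beta4 null mice read 9.26, 9.33, 9.50, 9.17 and 9.37 untreated and 9.53, 9.64, 9.34 and 9.69 seized. Each genotype had some overlap, and 11 of the 12 seized mice were above the untreated mean of their genotype, the exception being seized alpha7 +/T mouse 2. The differences were 0.19 ± 0.13, 0.34 ± 0.12 and 0.22 ± 0.12, with a mean over genotypes of 0.25 ± 0.071. The pairwise differences between genotypes of this response were between 0.034 and 0.15, with SEs from 0.17 to 0.18.

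The other Klf9 probe set, 93527_at, was noisier and did not follow the former closely. It ranged from 7.02 to 8.06 with a median of 7.44 in untreated wild-type mice and read 8.12, 7.85 and 7.97 in seized ones. The alpha7 +/T values were 7.24, 7.34, 7.48, 7.64 and 6.96 untreated and 8.66, 7.59, 8.26, 6.73 and 7.52 seized, so the seized group held both the highest and the lowest value. In beta4 null mice it read 7.67, 8.13, 7.96, 7.66 and 7.62 untreated and 8.12, 7.98, 7.32 and 7.80 seized. These overlap, with 1 seized mouse, at 7.32, below every untreated mouse. The differences were 0.50 ± 0.28, 0.42 ± 0.25 and -0.0057 ± 0.27. The alpha7 +/T value ran from 0.20 without seized mouse 1 to 0.68 without seized mouse 4, and on high-ratio arrays alone it was -0.051. The Pearson r between the Klf9 probe sets over 28 mice was 0.36, and 0.064 after group means were removed.

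**Figure D3:**
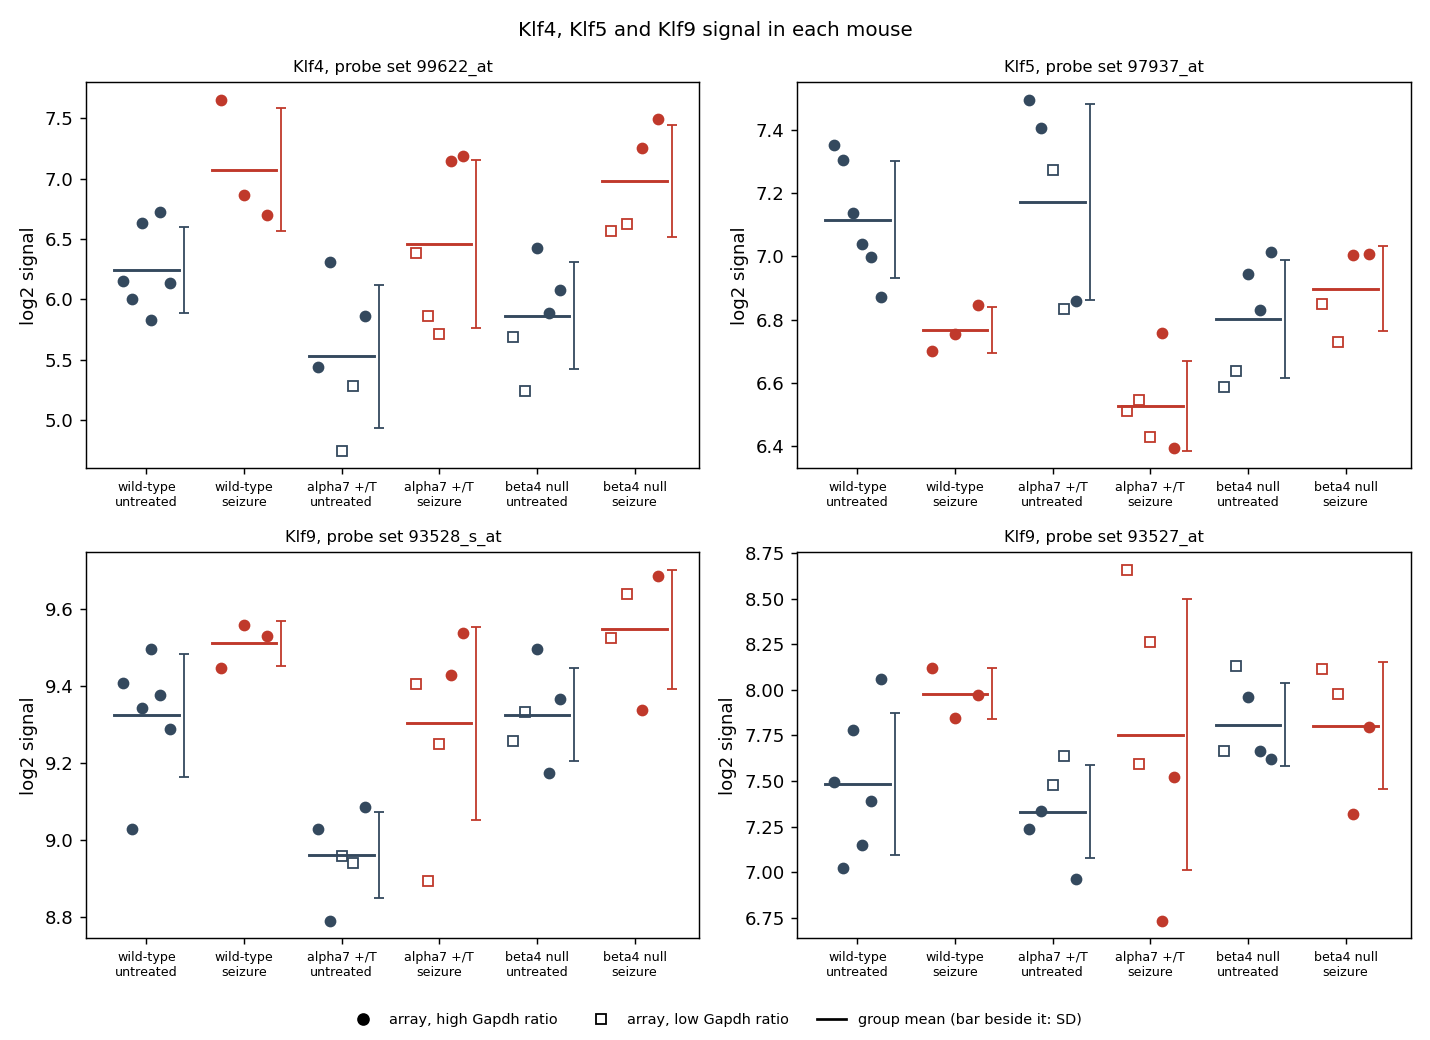
Log2 signal of the Klf4, Klf5 and Klf9 probe sets (vertical axes) in each mouse of the 6 groups (horizontal axes), with the group mean as a line and its SD as a bar beside it, circles for arrays with a high Gapdh ratio and open squares for those with a low ratio. The Klf4 mean is higher in seized mice of each genotype, Klf5 is lower in seized wild-type and alpha7 +/T mice, and the low-ratio arrays sit low within their groups for Klf4.

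Untreated alpha7 +/T mice also had less signal for 1 of the Klf9 probe sets. For 93528_s_at the difference from untreated wild-type mice was -0.36 ± 0.11 (limma, adjusted p = 0.032) and that from untreated beta4 null mice was -0.36 ± 0.12 (adjusted p = 0.078). All 5 alpha7 +/T values were below all 5 beta4 null values, as for 1.63% of probe sets, and they overlapped the wild-type group through 1 wild-type mouse at 9.03. The other probe set, 93527_at, was -0.15 ± 0.24 from wild-type (adjusted p = 0.66) and -0.48 ± 0.25 from beta4 null (adjusted p = 0.29). Against wild-type 2 of the 6 Krüppel-like probe sets passed, both lower, in a comparison where 16% of all probe sets were called and 8.29% were lower. Against beta4 null 1 of 6 passed, where 2.48% were called and 1.62% were lower, and between beta4 null and wild-type mice 0 of 6 passed, where 0.0136% were called. A share of 2 in 6 among a background of 16% is not a result about these genes. Klf4 in untreated alpha7 +/T mice was -0.72 ± 0.30 from wild-type (adjusted p = 0.091) and Klf5 was 0.057 ± 0.13 from it (adjusted p = 0.78), and the sign of the Klf5 value turned with quantile normalization (-0.049) and with median centring (-0.18).

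Read together by genotype, the 6 probe sets gave 5 positive values and 1 negative value in each of the 3 genotypes, the negative one being Klf5 in wild-type and alpha7 +/T mice and Klf9 93527_at in beta4 null mice. Of all probe sets, the background for the gene lists described next, 0.408% were called over the mean of the genotypes (0.327% higher and 0.0816% lower) and 2.8% in alpha7 +/T mice (1.71% higher and 1.09% lower). In wild-type and beta4 null comparisons 0.0544% and 0.0136% were called. The wild-type comparison has 3 seized mice, so a smaller number of calls there does not show a smaller response. With age and array class as covariates the mean seizure difference of Klf10 99602_at was 0.54, against 0.60 without them.

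**Figure D4:**
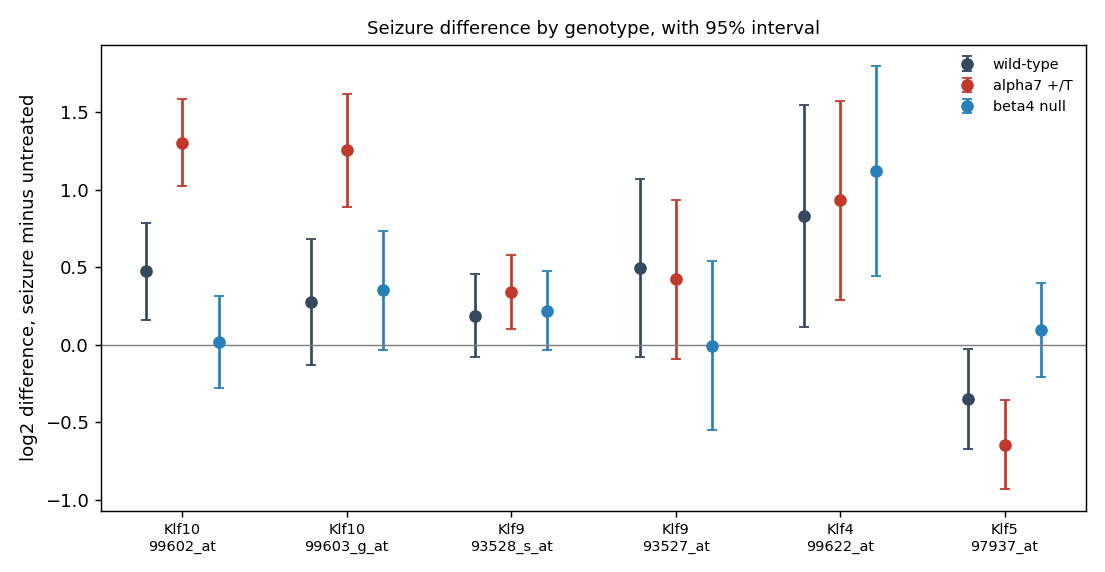
Seizure minus untreated difference on the log2 scale (vertical axis) for the 6 probe sets (horizontal axis) in wild-type, alpha7 +/T and beta4 null mice, points with 95% intervals. The alpha7 +/T points stand above the others for Klf10 at 1.30 and 1.25, and the Klf4 points lie between 0.83 and 1.12 with wide intervals.

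No member passed the test for sex or for age. Males minus females, with group in the model, ran from -0.23 for Klf4 to 0.30 for Klf9 93527_at, and 0 of 6 probe sets passed (limma, lowest adjusted p = 0.41), where 0.0544% were called. In untreated mice the difference of 6-week-old from older mice ran from -0.15 for Klf4 to 0.17 for Klf5, and 0 of 6 passed (limma, lowest adjusted p = 0.53), where 1.52% were called and 1.4% were higher at 6 weeks. A p above the threshold does not show that the sexes or ages are alike, and the intervals reach 0.61 for Klf9 93527_at by sex and -0.70 for Klf4 by age.

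Among the other Krüppel-like and Sp factors, 11 of 22 genes had a probe set on the array and 8 were kept, and 0 of the 8 rose or fell in any seizure comparison or in the interaction (limma). Their median change over the mean of genotypes was 0.015, beside 0.0081 over all genes. For alpha7 +/T mice it was 0.39, beside 0.0093. Klf3, a repressor of the family, came nearest in alpha7 +/T mice with 0.87 ± 0.25 (adjusted p = 0.053), and its value was -0.074 for wild-type mice and -0.020 for beta4 null mice. Klf7 had 0.40 ± 0.21, Sp3 0.37 ± 0.22 and Klf1, the erythroid factor, 0.54 ± 0.38 in alpha7 +/T mice. In untreated alpha7 +/T mice 2 of the 8 were lower than in wild-type mice and 0 were higher, in the comparison where 16% of all probe sets were called and 8.29% were lower: Klf7 by -0.59 ± 0.20 (adjusted p = 0.044) and Sp3 by -0.83 ± 0.21 (adjusted p = 0.017).

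The genes around Klf10 in the TGF-beta pathway and the Sin3 complex gave few calls in the seizure comparisons. Of 16 measured TGF-beta and Smad genes, 0 rose and 1 fell over the mean of genotypes, with a median of 0.067. The gene that fell was Id3, an inhibitor of basic helix-loop-helix factors, by 0.48 ± 0.11 on the log2 scale (limma, adjusted p = 0.039), and in alpha7 +/T mice by 0.70 ± 0.18 (adjusted p = 0.030). Of 11 measured Sin3 complex genes, 0 rose and 0 fell in any of the 3 genotypes, and the medians were -0.12 (wild-type), 0.13 (alpha7 +/T) and -0.081 (beta4 null). The smallest p over the mean of genotypes in that list belonged to Sin3b, at 0.22 ± 0.13 (adjusted p = 0.67). Between untreated alpha7 +/T and wild-type mice, 2 of the 16 TGF-beta and Smad genes were higher and 4 were lower. Of the 11 Sin3 complex genes, 0 were higher and 4 were lower there. In that comparison 7.73% of all probe sets were higher and 8.29% were lower.

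Genes known to respond to glucocorticoids and thyroid hormone, as Klf9 does, gave more calls over the mean of genotypes. Of 18 measured, 5 rose and 0 fell, with a median of 0.36 beside 0.0081 over all genes. Like the other lists, this one was chosen with earlier results of these data known. The counts and p-values of the lists are thus descriptions. Sgk1, a kinase induced by glucocorticoids, rose by 1.05 ± 0.18, Errfi1, a brake on the EGF receptor, by 0.78 ± 0.12, Nfkbia, the inhibitor of NF-kappa-B, by 0.63 ± 0.12 and Ddit4, an inhibitor of mTOR signalling, by 0.62 ± 0.10 (limma, adjusted p = 0.0023, 0.00062, 0.0055 and 0.00081). Of the same list 3 rose and 0 fell in alpha7 +/T mice, while neither wild-type nor beta4 null mice had any that passed (0 and 0). The list medians were 0.32, 0.52 and 0.23 in wild-type, alpha7 +/T and beta4 null mice, and 0 of 18 passed the interaction F test. In untreated alpha7 +/T mice 1 of the 18 was higher and 3 were lower than in wild-type mice, with a median of -0.38 beside 0.040 over all genes. There 7.73% of all probe sets were higher and 8.29% lower. Of 17 measured clock genes, 1 rose over the mean of genotypes (Per1, by 0.90 ± 0.19, adjusted p = 0.029), which is also in the hormone list, and 3 rose in alpha7 +/T mice. These were Per1 by 1.43 ± 0.32, Bhlhe40 by 0.81 ± 0.19 and Nr1d2 by 0.80 ± 0.17 (limma, adjusted p = 0.015, 0.018 and 0.012). Of the 17 clock genes 0 passed the interaction F test. Between untreated alpha7 +/T and wild-type mice 1 clock gene was higher and 3 were lower, with a median of -0.32 beside 0.040 over all genes.

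Early transcription factors are the genes that neuronal activity is known to induce within minutes. Of 13 measured, 8 rose and 0 fell over the mean of genotypes, with a median of 0.71, and the number that rose was 3 for wild-type, 5 for alpha7 +/T and 1 for beta4 null mice. Nr4a1, an orphan nuclear receptor induced by activity, rose in each genotype, by 1.52 ± 0.27 (wild-type), 1.49 ± 0.25 (alpha7 +/T) and 1.47 ± 0.26 (beta4 null) (limma, adjusted p = 0.017, 0.0015 and 0.041). Fos rose by 1.99 ± 0.22 over the mean of genotypes (adjusted p = 5.2e-06), with values of 1.82 ± 0.40, 2.48 ± 0.36 and 1.65 ± 0.38 in wild-type, alpha7 +/T and beta4 null mice, of which only the alpha7 +/T one passed (adjusted p = 0.17, 0.00042 and 0.31). Fosb and Atf3 rose by 1.20 ± 0.14 and 1.18 ± 0.16 over the mean of genotypes. The list medians were 0.73, 0.71 and 0.84 in wild-type, alpha7 +/T and beta4 null mice. Klf10 in the same order was 0.47, 1.30 and 0.019 for 99602_at and 0.27, 1.25 and 0.35 for 99603_g_at.

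Of the other marker lists, 1 of 3 measured markers of pericytes and smooth muscle rose in alpha7 +/T mice. This was Rgs5, by 1.43 ± 0.35 (limma, adjusted p = 0.024), with -0.16 in wild-type mice. Between untreated alpha7 +/T and wild-type mice, 0 of these 3 markers were higher and 1 was lower, where 8.29% of all probe sets were lower. The median of the 3 was -0.62 there, beside 0.040 over all genes. Markers of neurons (5 measured), astrocytes (5), oligodendrocytes (4), microglia (5), choroid plexus (3), meninges (4) and blood (3) had 0 members that passed in either direction over the mean of genotypes or in any genotype. The neuronal sum ran from 12.93 to 13.48 over all 28 mice. The pericyte and smooth muscle sum ran from 7.07 to 7.63 in untreated and from 7.68 to 8.51 in seized alpha7 +/T mice, and its Pearson r over 28 mice was 0.65 with Klf10 99602_at and -0.72 with Klf5. After group means were removed these became 0.39 and -0.56. Klf10 99602_at had an r of -0.69 with the endothelial sum, which became -0.036 after group means were removed. The part of these cells in the Klf10 result was not tested. Klf4 had an r of 0.62 with the sum of choroid plexus markers, and 0.63 after group means were removed. That choroid plexus sum overlapped between untreated and seized mice in each genotype. With group means removed, Klf4 also had an r of 0.67 with the meninges sum, -0.68 with the neuronal sum and -0.53 with the microglial sum. Array class, by which Klf4 differed within groups, was not removed from these values, and its part was not tested.

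The genes whose signal ran most like Klf10 99602_at over the 28 mice were Ak4, an adenylate kinase of mitochondria (Pearson r = 0.81, Spearman rho = 0.82), Eny2 (0.75, 0.77), Hnrnph2 (0.74, 0.75), Gad1, the enzyme that makes GABA (0.74, 0.74), and Lamp2, a lysosomal membrane protein (0.73, 0.82). Without the 2 mice farthest from the median, r was 0.82 for Ak4 and between 0.68 and 0.70 for the other 4. After group means were removed it fell to between 0.17 (Gad1) and 0.58 (Eny2). Their seizure differences in alpha7 +/T mice were 0.87 for Ak4, 1.28 for Eny2, 1.55 for Hnrnph2, 0.40 for Gad1 and 1.19 for Lamp2, in wild-type mice 0.049, 0.79, 0.39, 0.32 and -0.14, and in beta4 null mice 0.14, -0.30, 0.13, -0.15 and -0.22. Because these genes were picked for their likeness, their differences are descriptions.

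For Klf5 the most alike were 0610012G03Rik (Pearson r = 0.92), Acaa1a, a peroxisomal thiolase (0.89), Saraf (0.86), Pde6d (0.86) and Eng (0.85), and with group means removed r was 0.83, 0.83, 0.77, 0.78 and 0.71. For Klf4 99622_at they were Errfi1 (0.79), Wdr92 (0.78), Cfl2 (0.75), Nfkbia (0.75) and Hat1 (0.75). Errfi1 and Nfkbia are both in the hormone list above. For Klf9 93528_s_at they were Cfl2, a regulator of actin (0.83), Rbm39 (0.77), Ufm1 (0.76), Ipo5 (0.75) and Emc2 (0.75). All correlations are over 28 mice that share groups and array classes, and with array class means removed each member's top gene kept an r of 0.81 (Ak4), 0.90 (0610012G03Rik), 0.76 (Errfi1) and 0.83 (Cfl2).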

How the data were processed

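Total RNA from whole brain was hybridised to U74Av2 arrays, 1 per mouse, and the labels give each sample as 1 mouse. The authors deposited 1 linear signal intensity for each probe set. MAS5 made it, as the submitters' processing notes say, and no source used here gives a version. Trimmed of the lowest and highest 2%, the mean was 150 on every array, so the intensities had been scaled to a common level. They were used as deposited, as log2. No detection call was used, so a weak signal was not set against background. Precision is limited by the number of arrays, none of which were identical.

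Of 12488 probe sets, 66 controls were left out and 7350 kept (signal above the array median on at least 3 arrays). Differences were fitted with limma (version 3.58.1, R 4.3.3; lmFit, eBayes with a variance trend) with a mean for each of 6 groups and 28 arrays, with two-sided p-values and the Benjamini-Hochberg adjustment over all 7350, at 0.05. The fit was tested on simulated data. Sex, age or array class entered as a further term. As a covariate of all 6 groups age entered in weeks, and it entered as an age class in the comparison of untreated mice by age. Lists use the probe set with the highest mean per gene. Of the lists, up to 4 genes that passed in a seizure comparison were named by smallest p, otherwise the 1 with the smallest p over the mean; of the other Krüppel-like and Sp genes, those that passed and the 4 with the smallest interaction p; for likeness, the 5 highest Pearson r. The 7 endothelial markers that did not pass were named after their values were seen. The members and lists were chosen with earlier results of these data known. Array class, the fits within title prefixes and the fit with class and age together were added after the data were seen. A promoter window is 250 bases and motifs were counted on both strands.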

Additional observations from a re-analysis of the deposited data

Results flagged for a closer look

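Klf10 99602_at was singled out by the interaction term of the fit over all probe sets, the same quantity that chose the gene. The seizure difference in alpha7 +/T mice exceeded that in wild-type mice by 0.83 and that in beta4 null mice by 1.28 on the log2 scale, and the beta4 null difference minus the wild-type one was -0.46. Of these only the alpha7 +/T minus beta4 null value passed in the fit as reported, where 0.0272% of probe sets were called. In the same order the values of 99603_g_at were 0.98, 0.90 and 0.076. That probe set did not pass the interaction F test in the fit as reported, though it did with array class as a covariate. The gene was chosen with these differences known, so they are given here as a description. Over 30 combinations of probe set and group of 4 or more mice, 0 held a mouse far from the others of its group.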

How the results depend on the processing

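No paired analysis was possible because the labels carry no replicate numbers, and the mice were numbered in accession order. For Klf10 99602_at the alpha7 +/T minus beta4 null response moved by more than its SE with low-ratio arrays alone (1.58). With each mouse left out in turn the Klf10 99602_at values ran from 1.18 to 1.43 (alpha7 +/T minus beta4 null), from 0.79 to 0.86 (alpha7 +/T minus wild-type) and from -0.60 to -0.35 (beta4 null minus wild-type), and those of 99603_g_at from 0.76 to 1.04, from 0.83 to 1.09 and from -0.058 to 0.19. Of the 6 probe sets, the 2 that passed between untreated alpha7 +/T and wild-type mice became 4 with median centring, 1 without a filter, with array weights and with array class and age as covariates, and 0 with age or title prefix as a covariate, among mice of 7 weeks or older, on high-ratio arrays alone, among mice of prefix LT and with the compared groups alone. The 1 that passed between untreated alpha7 +/T and beta4 null mice became 2 with array class as a covariate and 0 without a filter, with array weights, with age, title prefix or class and age as covariates, among mice of 7 weeks or older, on high-ratio arrays alone and with the compared groups alone. The 1 that passed between seized alpha7 +/T and beta4 null mice became 0 with median centring, with title prefix as a covariate, at 7 weeks or older, on arrays of either class alone and the compared groups alone. With array weights 1 passed between seized alpha7 +/T and wild-type mice, and 1 between seized beta4 null and wild-type mice. With a mouse left out these counts ran from 0 to 2, from 0 to 3 and from 0 to 1, and the causes were not tested.

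Small differences turned sign. Between untreated beta4 null and wild-type mice, Klf10 99602_at became -0.043 with median centring, -0.050 with array weights, -0.049 at 7 weeks or older, -0.099 on high-ratio arrays and -0.0085 with class and age as covariates. Klf9 93528_s_at became -0.13 with median centring, -0.00024 with array weights, -0.0075 with sex, -0.022 with age and -0.057 with title prefix as a covariate, -0.045 at 7 weeks or older and -0.062 among mice of prefix B4, and with a mouse left out ranged from -0.057 to 0.040. Klf4 became 0.031 with class and age as covariates. Between untreated alpha7 +/T and wild-type mice, Klf5 became -0.049 with quantile normalization, -0.18 with median centring, -0.030 with title prefix as a covariate, -0.11 at 7 weeks or older and -0.091 among mice of prefix LT, and with a mouse left out ranged from -0.024 to 0.14. Whole-brain signal, 3 to 6 mice per group and the lack of wild-type low-ratio arrays limit what can be resolved.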
